A study of Mus musculus with 3 samples.

Results

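Transcripts of the ubiquitin-specific protease (Usp) genes were examined in RNA immunoprecipitation sequencing (RIP-seq) of YTHDF2, a cytoplasmic reader protein of the RNA mark N6-methyladenosine (m6A) that speeds the decay of marked transcripts. The genes were taken by name, as every symbol made of Usp, a number and optional letters, which gave 50 of the 49997 genes counted. Usp17-like genes, symbols marked as pseudogenes and a further name were not used here. The cells were E14 mouse embryonic stem cells (ESCs) treated with doxycycline (Dox) for 24 h. In the study's cell line Dox switches on an added copy of Dux, and a tdTomato reporter follows Mervl activity. All 3 libraries come from cells of one treatment, and no untreated RIP-seq was analysed here. There was 1 input library and 2 YTHDF2 immunoprecipitation (IP) libraries, and no control-antibody IP was analysed here. Nothing in the sources used here says that the IP libraries came from separate cultures, so p-values measure the spread between these samples, which may be technical.

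Usp proteins are the largest family of deubiquitinases, the proteases that take ubiquitin off other proteins or trim ubiquitin chains. They share a papain-like catalytic fold and differ in the domains around it, which place single members at chromatin, the proteasome, endosomes, mitochondria or the nucleolus. In ESCs, deubiquitinases act on histones, on pluripotency factors and on signalling proteins. The symbol Usp6nl belongs here by name alone, since it encodes a GTPase-activating protein for Rab proteins with no deubiquitinase activity.

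m6A is laid down mostly at a short consensus named DRACH, and GGACT is among its most used forms. Because the readout is a reader of m6A, windows of 25 bases around GGACT are shown for the strongest change in each direction: Usp22 and Usp26, the most depleted, and Usp29 and Usp6nl, the only enriched transcripts. GGACT is in capitals and all letters run 5′ to 3′ on the transcript strand, read from the merged exons on GRCm38.p6 (mm10). Usp22 and Usp26 lie on the minus strand, and Usp29 and Usp6nl lie on the plus strand. Matches closer than 10 bases to the end of a merged exon have no window, which left out 1 match in Usp22 and 1 in Usp26. The 2 remaining windows of Usp22 are shown, and of the other genes the first coding windows, up to 3.
Usp22, exon 3 of 13, coding, chr11:61166727-61166751: tcttgtgtcaGGACTacatctatga
Usp22, exon 13 of 13, 3′ UTR, chr11:61152811-61152835: catgtttgtgGGACTctactgtgga
Usp26, exon 9 of 9, coding, chrX:51756792-51756816: acagtatcagGGACTttgaggcaaa
Usp26, exon 9 of 9, coding, chrX:51754992-51755016: gaacccaagaGGACTttgtatatag
Usp29, exon 15 of 15, coding, chr7:6961360-6961384: tggtgagctgGGACTgtatcatctg
Usp29, exon 15 of 15, coding, chr7:6961945-6961969: atcaatatttGGACTggagatcata
Usp29, exon 15 of 15, coding, chr7:6962094-6962118: cctttgcaaaGGACTtactcactca
Usp6nl, exon 5 of 19, coding, chr2:6386370-6386394: tgttctatgaGGACTgagactgctg
Usp6nl, exon 9 of 19, coding, chr2:6408941-6408965: gaaatcgaaaGGACTtccaagtggc
Usp6nl, exon 19 of 19, coding, chr2:6440978-6441002: ggaccagagcGGACTcaccctcaca
GGACT occurred 3 times in the merged exons of Usp22, 9 times in Usp26, 16 times in Usp29 and 18 times in Usp6nl. Per kb of exonic sequence this was 0.675 in Usp22, 1.64 in Usp26, 1.06 in Usp29 and 1.26 in Usp6nl, so the depleted Usp26 had the highest density of these 4. Of the 48 Usp genes tested, 47 held GGACT, and 93.15% of the 15201 protein-coding genes tested with sequence held it. Usp28 was the exception, with 0 matches. A match is a run of letters and not a measured m6A site, and m6A was not analysed here.

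The 3 libraries held between 35259827 and 36986994 counts, and 3 counts, taken as the lowest level read as present, corresponded to between 0.0811 and 0.0851 CPM. The IP and input libraries were compared with edgeR, by its quasi-likelihood test, over the 19601 genes that passed a filter on low counts, with scaling by TMM. A gene was called enriched or depleted at an adjusted p under 0.05 and a fold change over 2. The error rests on the 2 IP libraries alone, because the input had no replicate, and edgeR shares it across genes. The common dispersion of 0.00538 corresponds to a coefficient of variation of 7.33% beyond counting noise. An SE or p-value is thus not the spread of that gene's own 2 IP libraries alone. All 8 ESC markers were above 3 counts and summed to 8125 CPM in the input and to 8058 and 8016 CPM in the IP libraries. Single ESC markers moved in both directions. Sox2 gave 25316 input counts, against 47438 and 45019 after IP, and Dppa5a gave 66790, against 37920 and 39727. Markers of 2C-like cells (6 of 7 above 3 counts) summed to 2286 CPM in the input and to 3872 and 3911 CPM in the IP libraries, with Gm6763 at or under 3 counts. In the input, Zscan4a, Zscan4c and Zscan4d held 795, 546 and 878 CPM of this sum. Fibroblast markers summed to between 15.6 and 30.4 CPM, of which Thy1 held 28.1 CPM in the input. Dcn was at 0 counts in every library and Postn at 1, 4 and 2 counts. All 4 primitive endoderm markers were above 3 counts and summed to between 8.60 and 14.2 CPM. Trophoblast markers summed to between 0.396 and 1.25 CPM, with Elf5 at 0, 9 and 4 counts and Cdx2 at 2, 8 and 4 counts. The part of these markers in the values of Usp genes was not tested.

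Of the 50 Usp genes, 48 passed the filter. More Usp transcripts were depleted from the YTHDF2 IP than enriched in it. The enriched genes were 2 of 48, or 4.17%, where 15.0% of all genes tested were enriched. The depleted genes were 12 of 48, or 25%, where 13.0% of all genes tested were depleted. Among the 15227 protein-coding genes tested, the shares were 15.28% enriched and 12.52% depleted. The other 34 Usp genes stayed within 2-fold or above the adjusted p of 0.05. No set test was run, so these shares are descriptions.

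By direction alone the Usp genes lay near the background. After scaling, both IP libraries were above the input for 19 Usp genes, beside 44.2% of all genes tested, and both were below it for 22, beside 45.3% of all genes tested. For 7 Usp genes the IP libraries fell on different sides of the input. The median log2 fold change of IP over input was -0.07 over the Usp genes, with quartiles at -0.88 and 0.34. Over all genes tested the median was 0.01 and the quartiles were -0.72 and 0.81. Thus the lower quartile of the Usp genes lay below that of all genes and the upper quartile lay below it as well, while the medians were close. The sign of the median over Usp genes turned positive with scaling by library totals or by TPM, after a GC trend was removed, and with IP replicate 1 alone. The log2 ratios of the IP libraries differed by an SD of 0.19 over the Usp genes, and the widest gap between them among called genes was 0.29.

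At any fold, 34 of the 48 Usp genes passed the adjusted p of 0.05 by edgeR, beside 57.2% of all genes tested. Of these, 14 Usp genes were higher in the IP, beside 28.4% of all genes tested, and 20 were lower, beside 28.9%. Most of the higher ones, 12 of 14, stayed under 2-fold, while 8 of the 20 lower ones did. The size of the lean to the lower side depended on the processing. More Usp genes passed on the lower side in every setting with a test except removal of a GC trend. With scaling to TPM, 16 passed on the higher side and 17 on the lower, beside 32.9% and 24.7% of all genes tested. With a GC trend removed, 15 Usp genes passed on the higher side and 14 on the lower, beside 27.6% and 26.8% of all genes tested. By DESeq2, 11 and 14 of 49 Usp genes with an adjusted p passed, beside 22.7% and 21.7% of the 19600 genes with one. With the dispersion fixed at 0.1, a wider spread than the common dispersion of 0.00538 measured between the IP libraries, 0 Usp genes passed on the higher side and 5 on the lower, beside 8.05% and 7.81% of all genes tested. Those 5 were Usp22, Usp26, Usp9x, Usp45 and Usp50, all over 2-fold.

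**Figure D1:**
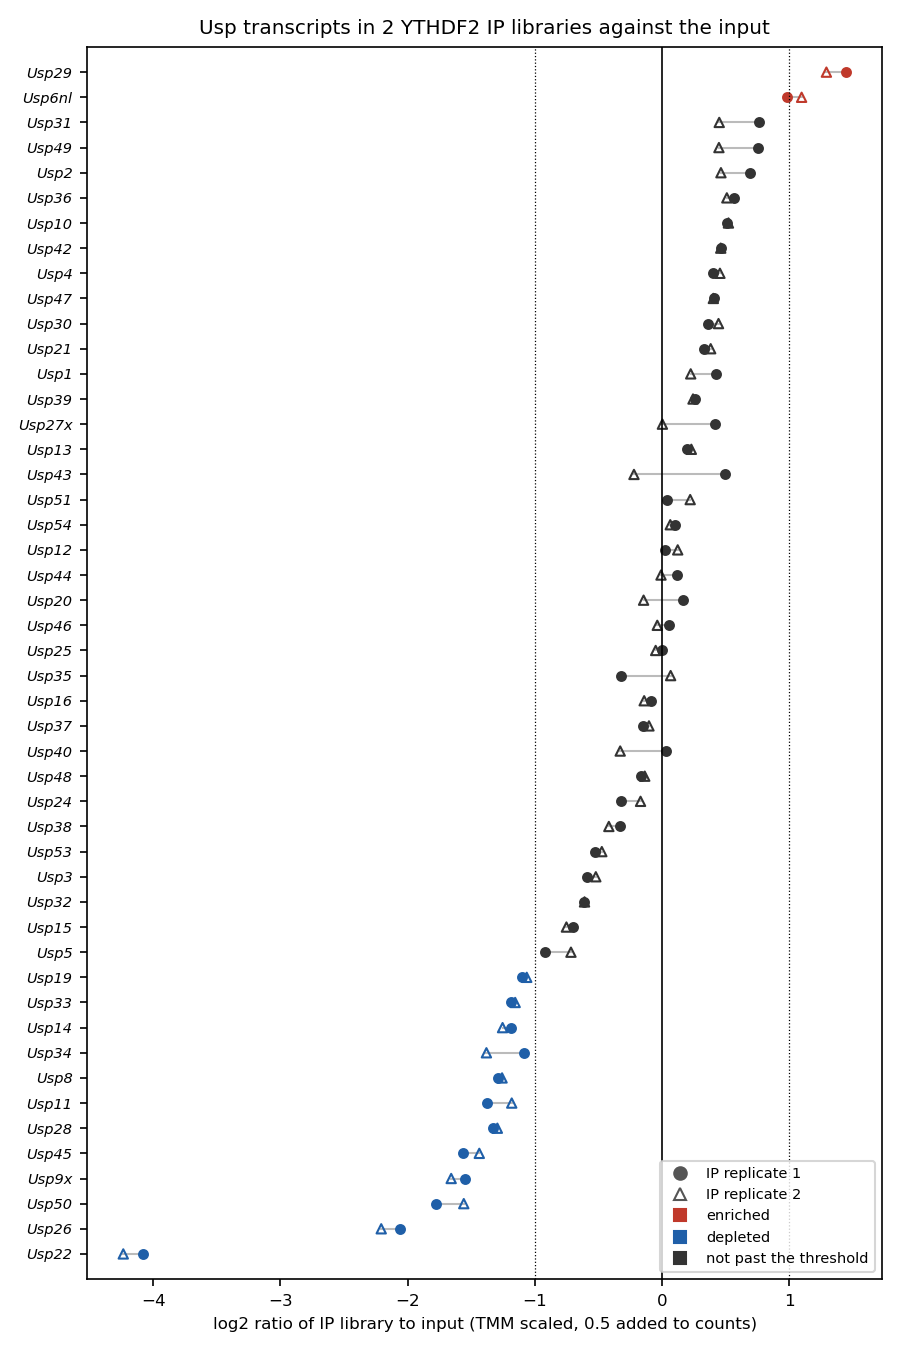
Log2 ratio of each YTHDF2 IP library to the input (horizontal axis, TMM scaled, 0.5 added to counts) for the 48 Usp genes tested, ordered by fitted log2 fold change, with filled circles for IP replicate 1, open triangles for IP replicate 2 and dotted lines at 2-fold. The 12 depleted genes (blue) end at Usp22, near -4 in both libraries, and the 2 enriched genes (red) are Usp29 and Usp6nl.

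The strongest change was that of Usp22, the catalytic subunit of the deubiquitinase module of the SAGA coactivator, which takes ubiquitin off histone H2B. The Usp22 gene (chr11:61151781-61175059, minus strand, 13 merged exons) gave 2774 counts before IP, 167 after it in replicate 1 and 152 in replicate 2. Both IP libraries lay far below the input and close to each other. This is 17.9-fold lower after IP, at a log2 fold change of -4.16 ± 0.12 (SE, edgeR adjusted p = 2.01e-26). Only 15 nuclear protein-coding genes had a lower value, and none of them had more than 82 counts in the input, so Usp22 was the lowest of the 11604 such genes with more than 82 input counts. Exons of Tnfrsf13b overlapped 31.3% of the exonic bases of Usp22, where reads over both genes were left out of the counts. The share of cells in which Usp22 RNA was bound and the amount bound per cell cannot be told apart in these bulk libraries.

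**Figure D2:**
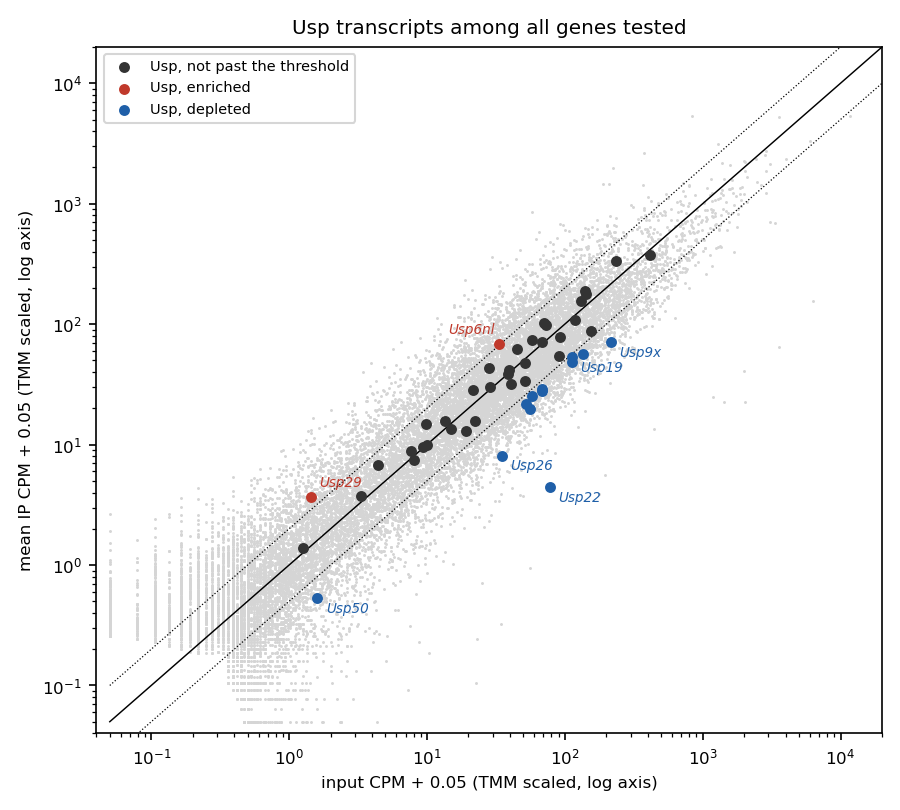
Mean CPM of the 2 YTHDF2 IP libraries (vertical log axis) against input CPM (horizontal log axis), both TMM scaled with 0.05 added, for all 19601 genes tested (grey) and the 48 Usp genes tested, with a solid line at equality and dotted lines at 2-fold. Usp22 stands apart below the lower dotted line at 78.4 CPM in the input, while most Usp genes lie between the dotted lines.

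Usp27x and Usp51 bind the same adaptor proteins as Usp22 and also act on histone H2B. They are named because of that link, after their values were seen. Usp27x, an X-linked gene with a single exon, gave 267 input counts, against 363 and 277 after IP, and its log2 fold change of 0.22 ± 0.21 did not pass the test (edgeR adjusted p = 0.387). Usp51 had 43, 45 and 52 counts, and its value of 0.13 ± 0.50 did not pass either (edgeR adjusted p = 0.842). With a GC trend removed, Usp51 was at 0.76 and did not pass (edgeR adjusted p = 0.201). No partner of the module was called depleted. Atxn7l3, the adaptor that activates the module, was enriched, with 4540 input counts, 9666 and 9838 after IP and a log2 fold change of 1.06 ± 0.06 (edgeR adjusted p = 1.25e-17). Atxn7l3b, a related cytoplasmic protein, was higher by 0.89 ± 0.07 on the log2 scale, short of 2-fold. Atxn7, which ties the module to SAGA, had a value of -0.28 ± 0.21 that did not pass the test (edgeR adjusted p = 0.256), and the small subunit Eny2 fell by 0.58 ± 0.10 on the log2 scale, also short of 2-fold. These 3 partners are likewise named after their values were seen.

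**Figure D3:**
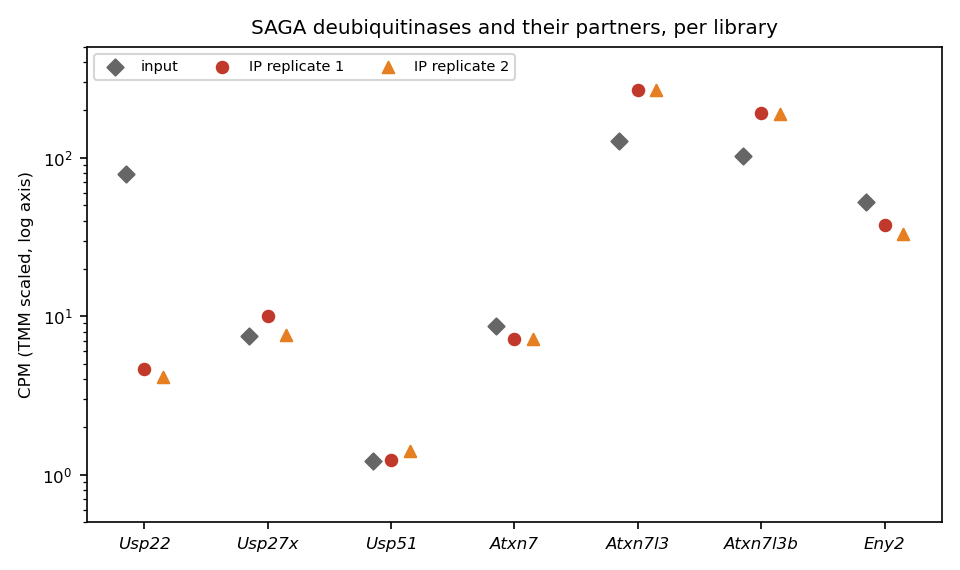
CPM (TMM scaled, log axis) in the input (diamonds), IP replicate 1 (circles) and IP replicate 2 (triangles) for the SAGA deubiquitinase Usp22, its relatives Usp27x and Usp51, and partner proteins of the module. Usp22 dropped from 78.4 CPM in the input to 4.63 and 4.15 CPM in the IP libraries, while Atxn7l3 was above the input in both.

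The other Usp genes of the SAGA and histone group stayed within 2-fold. Of the 8 genes of the SAGA and histone group, 1 was depleted, 0 were enriched and 4 passed the adjusted p at any fold, near the shares of 13.0%, 15.0% and 57.2% over all genes tested. Apart from Usp22 these were Usp3 and Usp21, which act on histone H2A, at -0.55 ± 0.15 and 0.36 ± 0.08, and Usp49, which acts on histone H2B. Usp49 was the highest of the group, with 155 input counts against 267 and 219 after IP, and a log2 fold change of 0.61 ± 0.25 (edgeR adjusted p = 0.0387). Exons of Gm20517 and Tomm6 overlapped 88.1% of its exonic bases, so its counts come from the remainder. Usp49 did not pass with halved counts (adjusted p = 0.0539), with the GC trend removed (0.0754) or by DESeq2 (0.226). With the GC trend removed, Usp3 and Usp21 were at -0.01 and -0.03 and did not pass (adjusted p = 0.965 and 0.764), and Usp3 did not pass by DESeq2 either (adjusted p = 0.0709). The median of the group was 0.09.

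Usp genes that work at the proteasome or on free chains spread over both sides of zero. Usp14, which sits on the proteasome and trims chains from its substrates, gave 4011 input counts, against 1794 and 1741 after IP. Both IP libraries were more than 2-fold below the input after scaling, at log2 ratios of -1.19 and -1.25. The log2 fold change was -1.22 ± 0.08, or 2.33-fold lower (edgeR adjusted p = 1.47e-16), and exons of Thoc1 overlapped 41.9% of the bases of Usp14. With the GC trend removed its value was -0.58, short of 2-fold. Usp5, which takes apart unanchored ubiquitin chains, was the lowest gene short of the threshold, with 5446 input counts, 2941 and 3432 after IP and a value of -0.81 ± 0.07, which passed 2-fold with the GC trend removed (-1.08). Its paralog Usp13 had a value of 0.21 ± 0.15 and did not pass the test (edgeR adjusted p = 0.241), though with scaling to TPM it passed at 0.36 (adjusted p = 0.0384), short of 2-fold. The difference between the paralogs was not tested.

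Paralogs also differed in value in other groups. Usp4, Usp11 and Usp15 share a DUSP and a ubiquitin-like domain and all 3 passed the adjusted p, beside 57.2% of all genes tested. Usp11, an X-linked gene linked to DNA repair by homologous recombination, gave 1841 input counts, against 724 and 840 after IP. Its log2 fold change was -1.28 ± 0.11, or 2.42-fold lower (edgeR adjusted p = 1.29e-12), with both IP libraries well below the input. Usp4 gave 4974 input counts, against 6706 and 7060 after IP, a value of 0.43 ± 0.06 on the higher side and short of 2-fold. Usp15, which deubiquitinates SMAD proteins, lay between them at -0.73 ± 0.08. With the GC trend removed, Usp15 was at -0.25 and still passed (edgeR adjusted p = 0.0088).

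Usp20 and Usp33 both bind the von Hippel-Lindau protein. Usp33 was depleted, with 2026 input counts against 910 and 942 after IP, a log2 fold change of -1.17 ± 0.10 and 2.25-fold lower values in the IP (edgeR adjusted p = 1.46e-12), or -0.77 with the GC trend removed, short of 2-fold. Usp20 gave 329 input counts, against 376 and 308 after IP, on either side of the input after scaling, and its value of 0.02 ± 0.19 did not pass the test (edgeR adjusted p = 0.949). Usp25 and Usp28 are a further pair of close relatives. Usp28, which stabilises MYC and binds 53BP1, gave 2432 input counts, against 987 and 1026 after IP, and was 2.48-fold lower at -1.31 ± 0.10 (edgeR adjusted p = 1.42e-14). Usp25 had 354, 362 and 354 counts and a value of -0.02 ± 0.18 that did not pass (edgeR adjusted p = 0.925). In both pairs the depleted gene had the higher input count, and the difference within each pair was not tested.

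Members placed at membranes or organelles held genes called in both directions. Usp8, which acts on receptors at endosomes with its partner Stam, gave 4821 input counts, against 2011 and 2087 after IP, and was 2.42-fold lower at -1.27 ± 0.07 (edgeR adjusted p = 6.63e-18). Usp19, an isoform of which is anchored in the endoplasmic reticulum, had 3969, 1888 and 1966 counts and was 2.12-fold lower at -1.08 ± 0.08 (edgeR adjusted p = 2.76e-15). Usp19 is the called gene nearest to 2-fold on the lower side, and with scaling by library totals or TPM its values of -0.99 and -0.93 fell short of it. Usp6nl, which acts on Rab5 in endocytosis, was the highest of the group. It gave 1167 input counts, against 2357 and 2586 after IP, both about 2-fold above it after scaling. Its log2 fold change was 1.04 ± 0.10, or 2.06-fold higher (edgeR adjusted p = 4.82e-12), and with IP replicate 1 alone the value was 0.99, under 2-fold. The other 2 members of the group, Usp30 of the mitochondrial outer membrane and Usp32, passed the adjusted p within 2-fold, at 0.40 ± 0.12 and -0.61 ± 0.10. With the GC trend removed neither passed, at 0.15 and -0.22 (adjusted p = 0.301 and 0.0627), and Usp30 did not pass by DESeq2 (adjusted p = 0.0692).

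In a group of 6 tested genes written down for their large proteins, though other Usp genes have coding parts as long, Usp9x and Usp34 were depleted. Usp9x, an X-linked deubiquitinase of SMAD4 and other substrates that is needed in early embryos, gave 7630 input counts, against 2660 and 2503 after IP. It was 3.04-fold lower at -1.60 ± 0.07 (edgeR adjusted p = 7.75e-22), and the IP libraries were far from the input relative to their own gap. Usp34, a regulator of Wnt signalling through Axin with 80 merged exons, had 2396, 1150 and 952 counts and was 2.34-fold lower at -1.23 ± 0.11 (edgeR adjusted p = 4.08e-12). Its log2 ratios of -1.09 and -1.38 showed the widest gap between IP libraries of any called Usp gene, and with the GC trend removed its value was -0.74, short of 2-fold. Usp47, which acts on DNA polymerase beta, was the highest of this group at 0.41 ± 0.08. Usp9y, the Y-linked copy of Usp9x, had 8, 6 and 8 counts and was not tested.

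The genes known from germ cells stood at both ends. Usp26, an X-linked gene known from testis whose whole coding part lies in its last exon (chrX:51752667-51801233, minus strand), gave 1242 input counts, against 304 and 278 after IP. Its log2 fold change was -2.13 ± 0.14, or 4.39-fold lower (edgeR adjusted p = 3.52e-16), the second lowest value of the family. With the GC trend removed it was -1.49, still past the threshold. Usp29, a paternally expressed imprinted gene next to Peg3 (chr7:6730559-6967220, plus strand), gave 49 input counts, against 137 and 125 after IP. Its value was 1.38 ± 0.37, or 2.60-fold higher (edgeR adjusted p = 0.00158), and rests on few input counts, with exons of Zim3 over 17.1% of its bases. Usp37, a cell cycle regulator of the same branch of the family, had 4176, 3834 and 4026 counts and a value of -0.13 ± 0.07 that did not pass the test (edgeR adjusted p = 0.115). With the GC trend removed, Usp37 turned to 0.33 and passed (adjusted p = 5.62e-04), short of 2-fold. So within this branch the coding part was in a single exon for both Usp26 and Usp29, and the 2 genes lay on opposite sides of the input.

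In a group written down as catalytically inactive, a label not checked here, Usp50 was depleted on low counts. It gave 55 input counts, against 16 and 19 after IP, and its value was -1.68 ± 0.61, or 3.22-fold lower (edgeR adjusted p = 0.0170). By DESeq2 it did not pass, with an adjusted p of 0.202. Usp39, a splicing factor of the tri-snRNP, was the highest of the 4 at 0.25 ± 0.06, with 4630 input counts against 5665 and 5675 after IP. Usp45, which acts on the repair protein ERCC1, was the lowest of the remaining genes. It had 1980, 683 and 757 counts and was 2.83-fold lower at -1.50 ± 0.11 (edgeR adjusted p = 7.41e-15), or -0.80 with the GC trend removed, short of 2-fold. Usp31 was the highest of them and the highest of the family short of the threshold, with 990, 1718 and 1400 counts and a value of 0.62 ± 0.12 (edgeR adjusted p = 4.61e-05).

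Groups with tested but no called genes were the WDR48-activated and the nucleolar and related members. Usp1, which with WDR48 deubiquitinates FANCD2 and PCNA, gave 5048 input counts, against 6915 and 6110 after IP and a value of 0.33 ± 0.07 (edgeR adjusted p = 2.05e-04). Usp46 was the lowest of the 3 WDR48-activated genes at 0.01 ± 0.11 and did not pass the test, but passed at 0.30 with the GC trend removed (adjusted p = 0.0194). Of all genes tested, 28.4% passed the adjusted p on the higher side. All 3 nucleolar and related genes did so, each within 2-fold. They ran from Usp42, with 1588, 2232 and 2264 counts and a value of 0.46 ± 0.09, to Usp36, the nucleolar deubiquitinase, with 2492, 3770 and 3673 counts and a value of 0.54 ± 0.08. With the GC trend removed, Usp42, Usp36 and Usp10 still passed, at lower values of 0.38, 0.27 and 0.32. Usp18, which removes the ubiquitin-like protein ISG15, gave 5 input counts, 4 in IP replicate 1 and 0 in IP replicate 2, where 0 counts allow a level of up to 0.0836 CPM. It was not tested.

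**Figure D4:**
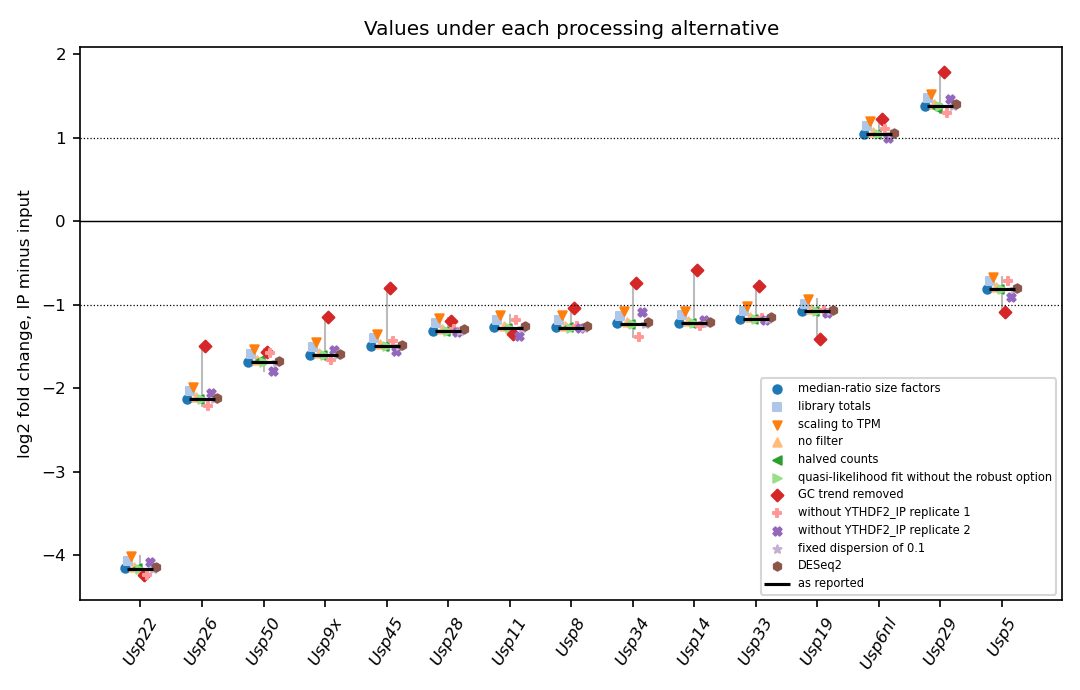
Log2 fold change of IP over input for the 14 called Usp genes and Usp5 as reported (black dashes) and under each alternative processing (coloured symbols), with dotted lines at 2-fold. Usp22 stayed between -4.24 and -4.01, while removal of a GC trend brought Usp14, Usp33, Usp34 and Usp45 within 2-fold and took Usp5 past it.

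Levels between genes were compared per length, in TPM (counts over exonic length, scaled to equal sums). In the input, Usp39 was the most abundant of the family at 113 TPM by the exons of its main chromosome, followed by Usp5 at 87.6, Usp48 at 78.4, Usp1 at 78.1 and Usp10 at 72.2 TPM. In IP replicate 1 the level of Usp39 was 151 TPM, that of Usp1 116 TPM and that of Usp10 114 TPM, while that of Usp5 was 51.5 TPM. The lowest input level of the tested genes was that of Usp29, at 0.181 TPM. Usp22 had 34.8 TPM in the input and 2.28 and 2.03 TPM in the IP libraries. Across the 48 Usp genes, the log2 fold change and log2 input CPM correlated with a Spearman rho of -0.26, as they did over the 15227 protein-coding genes (-0.26). Both measures share the input library, and Usp genes are not independent replicates.

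Usp genes have many exons. The merged exons of a gene, as the table lists them, numbered between 1 in Usp27x and 80 in Usp34, with a median of 19.5 against 10 over all protein-coding genes tested. Per kb of exonic sequence the median was 3.49 in the Usp genes and 2.87 in the protein-coding genes. The 12 depleted Usp genes had a median of 4.18 exons per kb and the 34 uncalled ones 2.97, while the 2 enriched ones had 0.99 and 1.32. Of the 24 Usp genes at or above the family median, 8 were depleted and 0 were enriched, and of the 24 below it, 4 were depleted and 2 were enriched. Protein-coding genes were split in the same direction, with 16.1% depleted and 7.34% enriched at or above that density and 10.2% and 20.4% below it. Usp22, at 2.93 exons per kb, and Usp26, at 1.64, were among those 4, so the most depleted members were not those with the densest exons. Over the 48 Usp genes the log2 fold change had a Spearman rho of -0.28 with exons per kb, and over protein-coding genes it was also -0.28.

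GC content ran with the log2 fold change in the family as in other genes. The rho was 0.38 over the 48 Usp genes and 0.36 over 15201 protein-coding genes. Usp genes with at least the family median of 46.97% GC had a median log2 fold change of 0.22, with 5 depleted and 1 enriched, and those below it had a median of -0.26, with 7 depleted and 1 enriched. Of protein-coding genes, 7.14% were depleted and 19.6% enriched at or above that GC content, and 24.2% and 6.02% below it. Usp45 and Usp26 had 40.13% and 41.01% GC, and Usp19 had 56.71%. Usp22 had 50.81%, close to the 50.42% median of protein-coding genes. The density of GGACT had a rho of 0.30 with the log2 fold change in the Usp genes and 0.16 in protein-coding genes. The density of the full DRACH consensus went the other way, with a rho of -0.23 in the Usp genes and -0.06 in protein-coding genes. These points share libraries and the features overlap in what they measure, so the relations are descriptions. Their part in the values of single Usp genes was not tested.

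**Figure D5:**
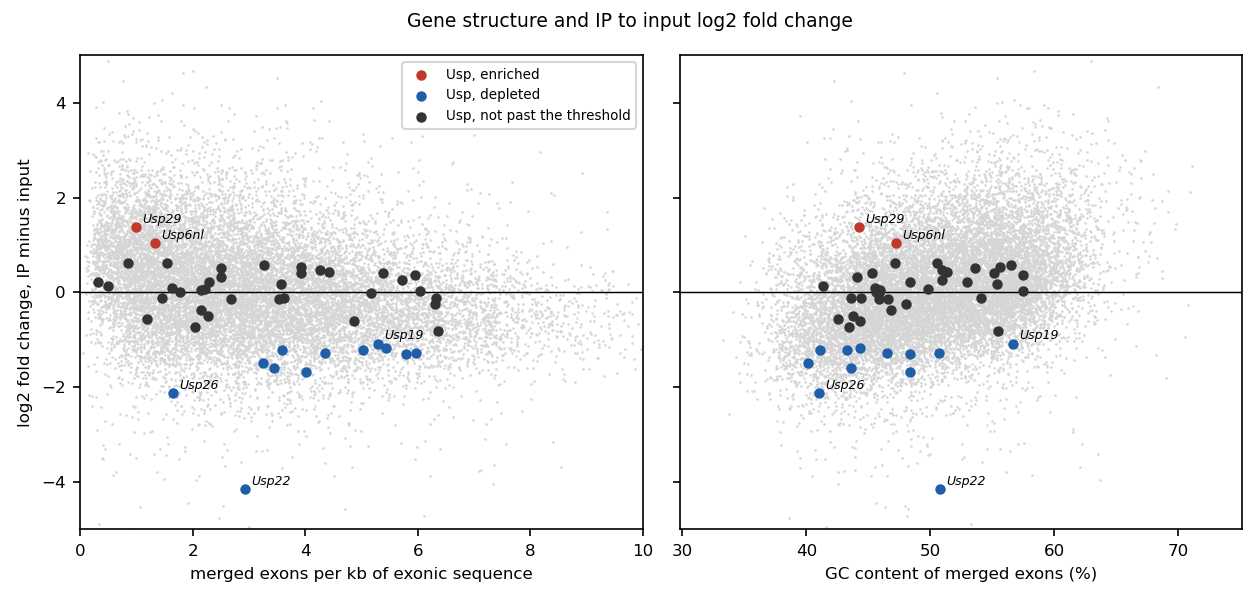
Log2 fold change of IP over input against merged exons per kb (left) and GC content of merged exons in percent (right) for the 48 Usp genes tested and, in grey, protein-coding genes, of which 135 lie beyond the log2 axis of 5 in either direction and 45 more beyond 10 exons per kb in the left panel. Depleted Usp genes (blue) spread over a wide range of exon density and GC content, and Usp22 is the lowest Usp gene in both panels.

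Usp genes on the X chromosome were set beside other X-linked genes. Of the 5 X-linked Usp genes tested, 3 were depleted (Usp9x, Usp11 and Usp26) and Usp27x and Usp51 did not pass the test. Of the 583 X-linked protein-coding genes tested, 28.64% were depleted and 4.29% were enriched, with a median log2 fold change of -0.67. Of the other protein-coding genes, 11.88% were depleted.

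Lists of other ubiquitin genes were counted in the same way. Of 40 tested genes of other deubiquitinase families, 5 were enriched and 8 were depleted, beside 15.0% and 13.0% of all genes tested, with a median of -0.39. Most of the depleted ones came from the list headed JAMM, 5 of 11 tested, which holds metalloproteases and relatives without protease activity, among them Psmd14, the deubiquitinase of the proteasome lid, at -1.23 ± 0.07. The others were Cops6, Brcc3, Mysm1 and Eif3f, at -1.06, -1.15, -1.19 and -1.13 on the log2 scale. The enriched ones were Bap1, the histone H2A deubiquitinase, at 1.24 ± 0.06, and Otulin, Otud7a, Otub2 and Zranb1 of the OTU family, with Otulin, which cuts linear chains, the highest at 2.04 ± 0.09. Otud6a, Alg13 and Mindy3 were depleted. None of the 3 Josephin genes was called. Of 3 genes with a Usp-like fold and another name, Uspl1, a protease for SUMO, was enriched, with 4268 input counts, 15212 and 15360 after IP and a value of 1.80 ± 0.06 (edgeR adjusted p = 8.39e-25).

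Of 15 tested partners of Usp proteins, 3 were enriched and 2 were depleted, near the 15.0% and 13.0% of all genes tested. Besides Atxn7l3, the enriched ones were Wdr20rt and Dmwd, relatives of the Usp12 and Usp46 activator Wdr20, at 1.39 ± 0.19 and 1.56 ± 0.07. The depleted ones were Gmps at -1.09 ± 0.08 and Stam2, an endosomal partner of Usp8, at -1.34 ± 0.12. All 5 tested genes of the 6 listed E1 enzymes, which activate ubiquitin or a related protein, were depleted. These were Uba1, Uba2, Uba3 and Uba6, between -1.30 and -1.60 on the log2 scale, and Uba1y, which gave 28 input counts, against 0 and 6 after IP.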

How the data were processed

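RIP-seq libraries of Dox-treated E14 ESCs were grouped by their titles as 1 input and 2 YTHDF2 IP libraries. The labels describe IP from extracted total RNA and the methods IP from a lysate. The authors deposited raw counts for each gene. Per the file headers these came from featureCounts 2.0.3, run on exons of a RefSeq annotation of mm10. The submitters' processing notes name fastp 0.19.4, HISAT2 2.2.1 and DESeq2 1.40.2. Counting was paired-end without the read-pair option, so each mate was counted on its own, strand was not used, and by the defaults of the tool reads with several alignments or genes were left out. Sampling noise is therefore larger than the counts imply.

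The test used edgeR 4.0.16 in R 4.3.3, with filterByExpr, TMM, robust dispersions and the quasi-likelihood F test, with Benjamini-Hochberg adjustment over all 19601 genes and 1 residual degree of freedom. An SE is the log2 fold change divided by the root of F. Ratios of single libraries had 0.5 added to counts. DESeq2 1.42.0 and the other settings given at the end were alternatives. Limits from 3 counts cover counting error only. The table had 0 columns of other samples. All 50 Usp genes had the same start and end in RefSeq GRCm38.p6, from which exons and sequence were read, Usp39 from its main chromosome alone. Motifs were searched on the transcript strand of merged exons.

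The Usp genes, their role groups and the other lists were chosen with earlier results of these data known. The rule named every called gene, the highest and lowest of each group of 3 or more, and both of each pair. Usp3, Usp5, Usp10, Usp15, Usp21, Usp27x, Usp30, Usp32, Usp37, Usp48 and Usp51, and the partners Atxn7, Atxn7l3b and Eny2, were named after their values were seen. A list of ubiquitin genes is not reported here.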

Additional observations from a re-analysis of the deposited data

How the results depend on the processing

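The input had no replicate, the error comes from 2 IP libraries, and no control IP was analysed here, so variation between inputs and unspecific binding were not measured. No paired analysis was possible because the input carries no replicate number. The median log2 fold change of the Usp genes, -0.07 as reported, was 0.0269 with library totals, 0.0815 with scaling to TPM and 0.0584 with a GC trend removed, and ran from -0.12 to 0.02 when an IP library was left out. The all-gene median moved from 0.01 to 0.10 with library totals and 0.16 with TPM, and the Usp median minus that of all genes was -0.08 under each scaling and 0.04 with the GC trend removed.

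Depleted Usp genes numbered 11 with library totals, TPM or DESeq2, 9 with the GC trend removed and 12 with the other scaling, no filter or halved counts. Over all genes the depleted share fell too, from 13.0% to 11.1%, 10.3%, 10.2% and 10.3% in that order for the first 4 of these (DESeq2 over the 19600 genes with an adjusted p), and the enriched share of 15.0% was 16.9%, 18.2%, 12.5% and 14.1%. With the other scaling, no filter (27890 genes, 50 of them Usp) and halved counts, 12.9%, 8.74% and 12.6% of all genes were depleted. In the same order, 15.0%, 10.8% and 14.2% were enriched. With the dispersion fixed at 0.1, 0 were enriched and 5 depleted, and over all genes 1577 and 1531. Over 2-fold higher were 1 to 2 Usp genes when an IP library was left out, with 12 lower each time. Usp14, Usp33, Usp34 and Usp45 came within 2-fold with the GC trend removed (-0.58, -0.77, -0.74 and -0.80), and Usp5 passed it (-1.08). The fit without the robust option was added after seeing the data and called 2966 and 2570 genes. Of the genes that changed sign, Usp21 and Usp48 had passed the adjusted p as reported and did not pass on the other side, while Usp16 and Usp37 passed on the higher side with the GC trend removed (adjusted p = 0.0141 and 5.62e-04). Usp44, Usp46 and Usp54 also gained a pass there (0.32, 0.30 and 0.38), and Usp12 and Usp13 with TPM (0.23 and 0.36), all within 2-fold. With the GC trend removed, 10 Usp genes lost a pass. They were Usp2, Usp3, Usp21, Usp24, Usp30, Usp32, Usp38, Usp48, Usp49 and Usp53. By DESeq2 9 lost it, and with the dispersion fixed at 0.1, 29 did. With library totals Usp25 was at 0.0724, and without the filter at 0.000499. With TPM, Usp16 was at 0.036, Usp25 at 0.127, Usp35 at 0.0357, Usp37 at 0.0229, Usp40 at 0.0136 and Usp48 at 0.000965. With the GC trend removed, Usp16 was at 0.28, Usp20 at -0.37, Usp21 at -0.0294, Usp25 at 0.25, Usp37 at 0.33, Usp40 at 0.13, Usp43 at -0.0788 and Usp48 at 0.0753. The cause was not tested. Usp22 kept an adjusted p of 2.15e-10 or lower in each alternative with a test.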
